A study of Mus musculus with 8 samples.

Results

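The knockout library at 2 months came from the aorta of mice that lacked Apoe and are labelled with a smooth muscle knockout of TGFbR2. The 2 months are time on a high fat diet. The Col2a1-high cells were 57 of the 2253 cells in that library (2.53%, 95% interval 1.92% to 3.27%) and 57 of the 13056 cells in the whole series. A cell was a member when Col2a1, the gene of type II collagen, made up at least 0.1% of its unique molecular identifiers (UMIs, the counted RNA molecules). They carried a cartilage and bone matrix program that was low in the 2196 other cells of the library: Snorc, Cnmd, Chad, Col9a3, Acan, Ibsp, Omd and Bglap. Each of these genes passed the filter on level, given below, only through the members, which fixes part of the contrast. Their level of the smooth muscle actin gene Acta2 was 4.49% of that in the other cells. All 19 contractile genes measured, of 22 annotated, were at least 2-fold lower, against 27.8% of all genes. Of the 19, 5 passed the filter only through the other cells. Since Col2a1 chose the cells, and cells of 1 library are not replicates, every comparison below is a description with no test.

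Type II collagen is the main fibrillar collagen of cartilage. Chondrocytes make it under control of the transcription factor Sox9, together with the proteoglycan aggrecan and collagens IX and XI, and the same cells can later turn to a mineralising program with bone sialoprotein, osteopontin and osteocalcin. In hypercholesterolaemic mice, medial smooth muscle cells can lose their contractile proteins and take up matrix, stem-like or cartilage-like programs, and TGF-beta signalling is known as a brake on that change.

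The libraries came from GFP-positive cells sorted from the digested ascending aorta and run on the 10x Genomics Chromium system. The study held 8 libraries, 1 for each of 2 genotypes and 4 diets, and every mouse lacked Apoe. The controls are labelled Apoe-/- (called Apoe). The other genotype, labelled TGFBetaRiSMC-Apoe, also carries a smooth muscle knockout of TGFbR2 (called KO). One library of each genotype came from the diet labelled ND, and the others from mice kept on HFD, a high fat diet, for 1 month, 2 months or 4 months (1M, 2M, 4M). The labels name neither the Cre driver, nor the animals' age, nor how many mice made up a library, and Tgfbr2 is not in the KO table, so the knockout was not checked here. The KO 2M library had 18254302 UMIs with a median of 7631 per cell, and the medians of the other libraries lay between 6966 and 10988. No barcode of a member recurred in another library, while 3 to 8 barcodes of the whole KO 2M library did.

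Genes seen in under 5% of a library's cells are listed at 0 in the deposited tables. For KO 2M that means under 113 cells, which is more than the number of members, so a gene confined to them would be missing from the table. Col2a1 itself was listed because 383 cells held at least 1 UMI of it. It was listed at 0 in Apoe ND, 1M and 2M and in KO ND and 1M, where the rule therefore could not find a member. In Apoe 4M the rule took 51 of 1235 cells (4.13%, interval 3.09% to 5.39%) and in KO 4M 1402 of 1577 (88.9%, interval 87.2% to 90.4%). All intervals on shares are exact binomial (Clopper-Pearson) and those on levels exact Poisson, at 95%, and they cover counting error only.

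The Col2a1 share of a member's UMIs, the value that chose it, ran from 0.158% to 3.60% with a median of 0.760% (12 to 701 Col2a1 UMIs, median 115). The summed level of Col2a1 (chromosome 15, 97975602 to 98004695, minus strand, GRCm38) was 11385 counts per 1000000 UMIs (CPM; interval 11164 to 11609) in the members and 25.4 in the other cells. Among those others 326 of 2196 (14.8%) held a Col2a1 UMI, and 290 of the 326 held exactly 1. Their median depth was 8442 UMIs, against 16336 in the members. The 3 members nearest to the limit had shares of 0.158%, 0.169% and 0.186%, and the 3 nearest cells outside it 0.0903%, 0.0928% and 0.0963%. Of the latter 3, the cell at 0.0903% had 5754 CPM of Chad and 29277 of Ibsp, and the cell at 0.0963% had 13808 CPM of Comp, so the limit left out a few cells with the same genes. The number of cells between 0.05% and 0.2% was 10.

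**Figure D1:**
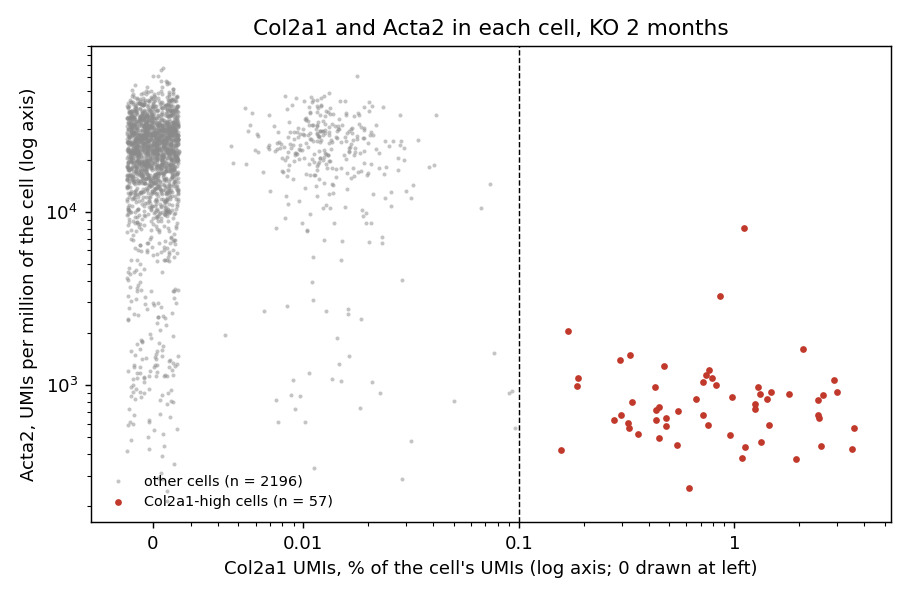
Each point is 1 cell of the KO 2M library, with the Col2a1 share of its UMIs (log axis, cells without Col2a1 drawn at the left) against its Acta2 level in CPM (log axis). The 57 Col2a1-high cells in red lie to the right of the dashed line at 0.1%, 54 of them under 2000 CPM of Acta2, while the median of the 2196 other cells in grey was 22642 CPM.

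The label was checked against the markers Col2a1, Chad, Comp and Spp1. Chad, a leucine-rich cartilage protein, was seen in 54 of the 57 cells and reached 1000 CPM in 44. Comp, a pentameric cartilage glycoprotein, was at 0 in 17 cells and reached 1000 CPM in 17. Spp1 (osteopontin) was seen in 54 cells, yet reached 1000 CPM in only 16. Of 12 chondrocyte markers 6 were listed, with a summed 20514 CPM in the members against 136 in the other cells, while Col9a1, Col9a2, Col11a1, Col11a2, Hapln1 and Matn3 were listed at 0. Of 8 osteoblast markers only Bglap and Ibsp were listed, at a summed 7824 against 53.0 CPM, and the bone regulators Runx2 and Sp7 and the phosphatase gene Alpl were listed at 0. The labelled cell type of the sort, smooth muscle, had all 8 of its markers listed, at a summed 1933 CPM in the members and 38631 in the others. The fibroblast markers were at 13818 against 2895 CPM through Dcn and Lum, with Dpt, Pi16 and Clec3b listed at 0. All 12 macrophage, 10 lymphocyte and 5 red blood cell markers were listed at 0 in the library, and the 2 endothelial markers listed summed to 50.5 CPM in members and 116 in others.

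The members held about 2.17 times the UMIs of the other cells. Their median was 16336 (lowest 4671, highest 27637) and that of the others 7540 (2926 to 30705). More than 2 times the library median, a range in which 2 cells in 1 droplet are a usual concern, was reached by 35 of 57 members (61.4%, interval 47.6% to 74.0%) and 53 of 2196 others (2.41%). Acta2 was read as a measure of contractile-cell RNA in the same droplet. In single members it ran from 254 CPM over a median of 749 to 8056, and 55 of the 57 were under 10% of the others' median. A single member, at 8056 CPM, exceeded 25% of that median. The 35 deep members had a median Acta2 of 712 CPM and the 22 shallower ones 945. After each cell was thinned to 2900 UMIs, members had a median of 1198 genes and others 1420, whereas the unthinned medians were 3336 and 2626. No doublet caller was run, and droplets with 2 members would not show in these values.

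**Figure D2:**
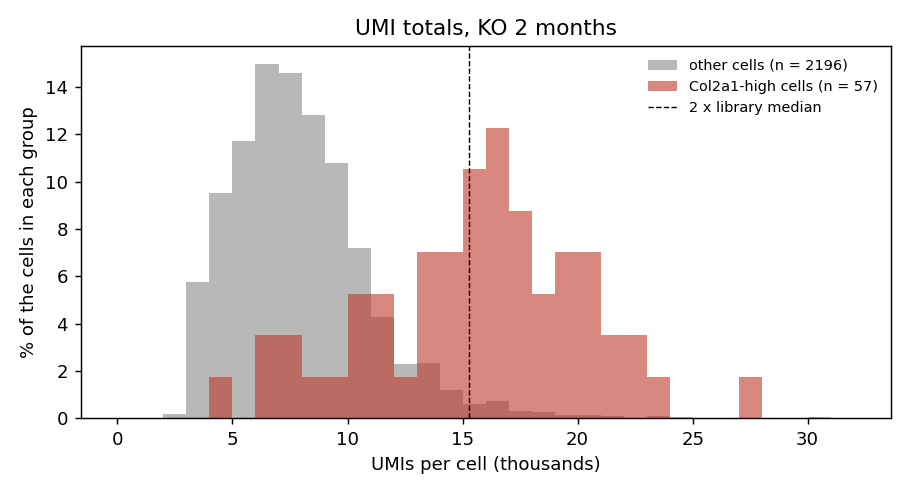
Histogram of UMIs per cell (axis in units of 1000) as the percent of the cells in each group, for the 57 Col2a1-high cells (red) and the 2196 other cells (grey) of KO 2M. The dashed line marks 2 times the library median (15262 UMIs), which 35 Col2a1-high cells and 53 other cells exceed.

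On the transcriptome as a whole the members formed 1 compact group. In a Leiden clustering of the library that left out Col2a1, Chad, Comp and Spp1, all 57 fell into 1 of 8 clusters, a cluster of 64 cells. A member had a median of 15 other members among its 15 nearest neighbours (lowest 6), and the median other cell had 0. With every gene of the cartilage matrix and bone lists left out, 57 members still shared a cluster of 65. The 7 cells of the cluster outside the rule had Col2a1 at 706 CPM, Ibsp at 6781, Spp1 at 14631 and Cytl1 at 9605, with Snorc at 270 and Cnmd at 125, and their Acta2 was 5742 CPM.

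Against the other cells, 3544 genes stood at 50 CPM or more in either group, Col2a1 excluded. Of these 466 (13.1%) were at least 2-fold higher in the members and 986 (27.8%) at least 2-fold lower, with a median log2 ratio of all genes of -0.26. Every count of higher or lower genes on a list below, members against other cells, stands beside these 13.1% and 27.8% of all genes. The ratios below are log2 of the summed CPM of members over that of the other cells. A gene under 50 CPM in one group passed this filter only through the other group, so the filter itself fixes part of its ratio. This holds for 10 of 12 cartilage matrix genes, 5 of 11 bone genes and 5 of 9 transcription factors, under 50 CPM in the other cells, and for 9 of 12 elastic fibre genes, under it in the members. Under it in the members were also 5 of 7 inflammatory and complement, 5 of 11 interferon-induced, 3 of 5 insulin-like growth factor and 4 of 6 stem-cell surface genes. Most other lists held some such genes too.

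The collagen and proteoglycan genes of cartilage stood furthest apart. Of 30 annotated genes on the cartilage matrix list, 17 were listed at 0, Col2a1 was the rule gene, and the 12 measured ones were all higher by 2.79 to 8.18. Snorc, a small transmembrane proteoglycan of cartilage (chromosome 1, 87470271 to 87475482), was at 0 in 9 members, had a median of 3822 CPM and reached 13721. Summed, Snorc was at 3730.2 CPM in the members (interval 3604 to 3859) and 12.8 in the others. Cnmd (chondromodulin, an inhibitor of vessel growth; chromosome 14, 79637690 to 79662170) was at 0 in 12 members, with a median of 1747 and a highest value of 11775 CPM, and its sums were 2630.1 against 10.2 CPM. Col9a3, a chain of collagen IX that decorates type II fibrils (chromosome 2, 180597790 to 180622189), was seen in 55 members with a median of 1175 CPM, for sums of 1669 against 6.28. A level of 1000 CPM was reached by 39, 32 and 33 members for Snorc, Cnmd and Col9a3, and by 1, 0 and 0 of the 2196 other cells. At the low end the groups overlapped, since 9, 12 and 2 members were at 0 for these genes.

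Chad (chromosome 11, 94565047 to 94569127) had a median of 2967 CPM per member and a highest value of 24846, and its sums were 5094 and 24.0 CPM. Acan, the core protein of aggrecan (chromosome 7, 79053483 to 79115099), was seen in all 57 members, from 121 over a median of 668 to 1680.2 CPM. Its sums were 739 and 15.7 CPM. Fmod (fibromodulin, which binds collagen fibrils) was likewise seen in all 57, from 59.3 over 1922 to 4657 CPM. The gene 1500015O10Rik (Ecrg4, a secreted peptide precursor) ran from 475 over 5896 to 44952 CPM and reached 1000 CPM in 56 members, against 25 of the 2196 other cells.

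Comp and Cytl1 were patchy. Comp (chromosome 8, 70373558 to 70382066) had a median of 117 CPM and a highest value of 39392, and 5 cells held 61.7% of its UMIs. Without the single highest cell its log2 ratio was 6.36 in place of 6.71. Cytl1, a secreted cytokine-like protein of cartilage, had a median of 1601 CPM, was at 0 in 6 members and reached 22073. Prg4 (lubricin, the surface lubricant of joints) had the lowest ratio of the list, 2.79, and was at 0 in 27 of the 57.

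Genes of bone and mineral were high in the same cells but more unevenly. Of 21 annotated genes on that list 9 were listed at 0, 1 was under 50 CPM, and of the 11 measured 9 were higher, against 13.1% of all genes. Ibsp (bone sialoprotein, which nucleates mineral; chromosome 5, 104299171 to 104311469) was at 0 in 10 members, with a median of 2539 and a highest value of 43789 CPM. Its sums were 5920.3 against 46.0 CPM. Omd (osteomodulin, a keratan sulphate proteoglycan of bone) was at 0 in 8 members and had a median of 1091 CPM, for a log2 ratio of 7.01. Sparc (osteonectin, a collagen-binding matrix protein) was high in every member, from 6481 over 59836 to 120108 CPM. Its summed 55149 CPM compared with 1819 in the other cells, and 55 members exceeded 10000 CPM.

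Bglap and Spp1 rested on few cells. Bglap (osteocalcin, a hormone and mineral-binding protein of mature osteoblasts; chromosome 3, 88383501 to 88384464) was at 0 in 19 members, had a median of 149 CPM and reached 1000 CPM in 16. A single member at 52291 CPM held 51.0% of the Bglap UMIs. Without it the summed level was 950 CPM in place of 1904, and the log2 ratio 7.08 in place of 8.08. Spp1 (chromosome 5, 104435118 to 104441050) summed to 10930.2 CPM in the members against 835 in the others, a log2 ratio of 3.71. Yet the median member had 359 CPM, and 5 cells held 79.1% of the Spp1 UMIs. The 3 members highest in Spp1, at 136926, 121193 and 114586 CPM, had 232, 0 and 0 CPM of Cnmd. Among the other cells 95 also reached 1000 CPM of Spp1.

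Regulators of mineral were on both sides. Enpp1, which makes the mineral inhibitor pyrophosphate, had a log2 ratio of 3.65, and Ank, which exports it, 2.56. The phosphate transporter Slc20a1 was at 3.59 and Tnfrsf11b (osteoprotegerin, a decoy receptor for the osteoclast factor RANKL) at 4.18, with a lowest member of 90.0 and a median of 1394 CPM. Mgp (matrix Gla protein, an inhibitor of vascular calcification) was abundant in both groups, at 8952 and 4791 CPM. Its ratio of 0.90 was under 2-fold, and was 0.55 without the 1 member that held 23.2% of its UMIs. Sost (sclerostin, a WNT antagonist) was the exception: it was at 0 in 33 members and summed to 38.2 CPM, against 1048 CPM in the other cells, a log2 ratio of -4.78.

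Among 19 cartilage and bone transcription factors 8 were listed at 0 and 2 were under 50 CPM. Of the 9 measured, 6 were higher and 2 lower. Sox9, the master regulator of chondrocytes (chromosome 11, 112782224 to 112787760), was at 0 in 7 members, had a median of 260 CPM and reached 1174. Its sums were 361 CPM (interval 323 to 403) and 65.7 (62.0 to 69.6), so the other cells were not free of it. Its partner Sox6 had a log2 ratio of 2.53. Nfatc1 was at 3.06, the osteoblast factor Dlx5 at 2.68, Trps1, a repressor in growth-plate chondrocytes, at 1.76 and Msx1 at 1.17. Dlx5 and Msx1 were patchy: they were at 0 in 34 and 35 of the 57 members, and 5 cells held 59.8% and 52.5% of their UMIs. Without the member highest in the gene the ratios were 2.45 for Dlx5 and 0.97, under 2-fold, for Msx1. Runx1 was at 0.21. Mef2c, which acts in smooth muscle as well as in chondrocytes, was lower at -1.38, and Zbtb20 at -1.07.

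**Figure D3:**
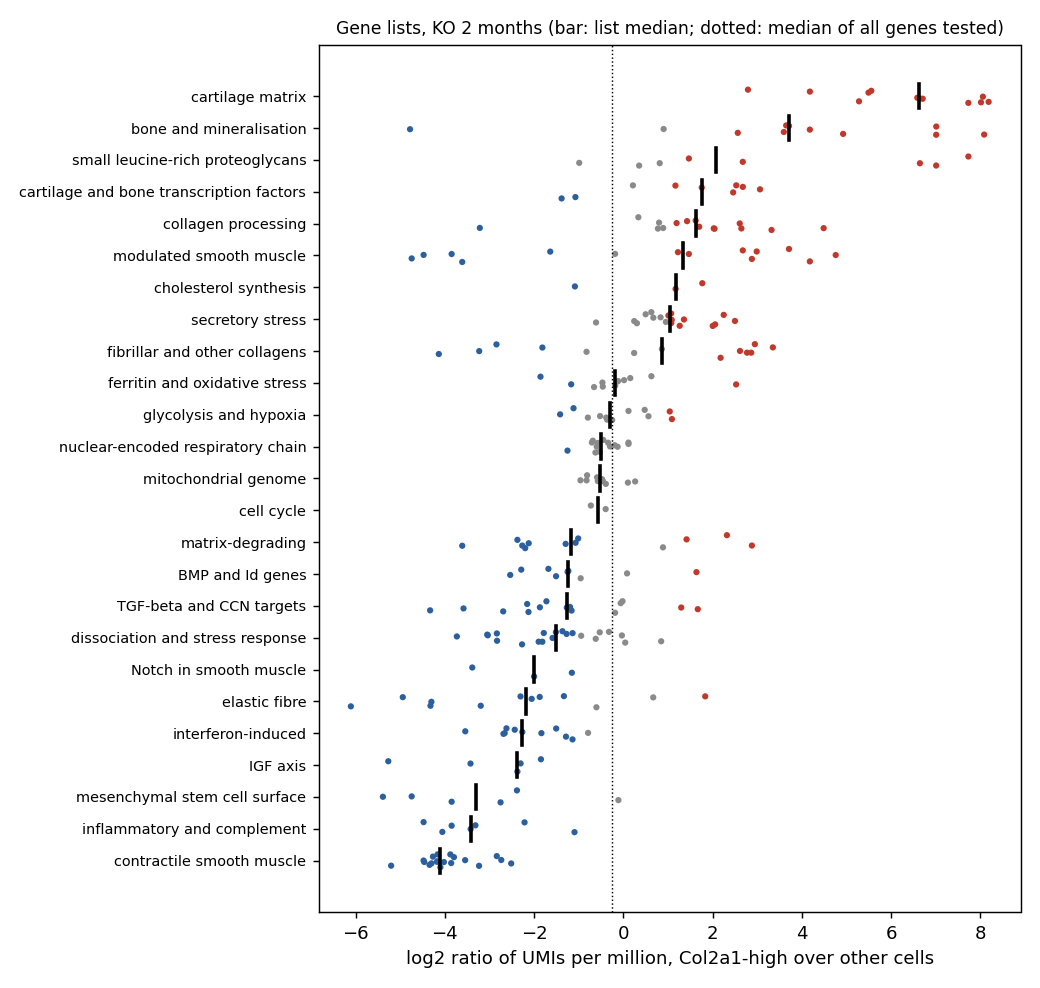
Points are the genes measured on each list, placed by their log2 ratio of CPM, Col2a1-high over other cells of KO 2M (red at 1 or more, blue at -1 or less); bars are list medians and the dotted line is the median of all 3544 genes. The cartilage matrix list has the highest median (6.61) and the contractile list the lowest (-4.10).

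The collagen genes outside cartilage separated by type. Of 13 measured, 6 were higher and 4 lower, with a median of 0.86, against 13.1% and 27.8% of all genes. The count of lower ones was thus near the share of all genes. Col1a2 and Col1a1, the chains of type I collagen, had ratios of 3.35 and 2.95. Col1a2 was seen in all 57 members, from 1305 over 4301 to 11237 CPM, while Col1a1 was at 0 in some, with a median of 630.1 and a highest value of 49794 CPM. Col18a1 (the endostatin precursor, of basement membranes) and Col14a1 were at -4.13 and -3.23. Of 15 genes that process collagen, 10 were higher and 1 lower, with a median of 1.62. Pcolce2 and Pcolce, enhancers of procollagen cleavage, were the highest at 4.49 and 3.32. Adamts2, the procollagen N-proteinase, was the lower one at -3.22.

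Of 8 small leucine-rich proteoglycans 5 were higher, Chad, Omd, Fmod, Dcn and Lum, and none was 2-fold lower (Ogn -0.99, Bgn 0.35). Genes of the secretory pathway and its stress response had 10 of 18 higher and none lower, with a median of 1.04. Herpud1, of endoplasmic reticulum degradation, went from 138 CPM in the others to 778 in the members, and Pdia6, a disulphide isomerase, from 119 to 564. The chaperone gene Canx was at -0.61.

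The contractile genes were low throughout. All 19 measured of 22 annotated were at least 2-fold lower, against 27.8% of all genes, with a median of -4.10, and 5 of them were under 50 CPM in the members. Acta2 (chromosome 19, 34241090 to 34255590) summed to 1013 CPM (interval 948 to 1081) against 22534. Myh11, smooth muscle myosin, was at 102 against 1828 CPM and was at 0 in 23 members. Tagln (transgelin) was at 0 in 50 of the 57 and stood at 12.3 against 455 CPM. The least reduced was Mustn1, at -2.51. The groups overlapped at their tails: the members' highest Acta2 was 8056 CPM, and 116 other cells were under 2000. Left without the 3 members at 2000 CPM or more, the list had a median of -4.38 and Acta2 a ratio of -4.89.

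RNA free in the droplets can put contractile transcripts into cells that do not make them. The members' level as a share of the others' was 4.49% for Acta2, 5.59% for Myh11, 2.72% for Tagln, 17.5% for Mustn1 and 1.45% for Eln. The part of free RNA in these levels was not tested.

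Elastic fibre genes were low as well, with 9 of 12 lower and 1 higher and a median of -2.18. Eln (elastin; chromosome 5, 134702593 to 134747323) had 5 UMIs in all 57 members, 5.61 CPM (interval 1.82 to 13.1), against 386 CPM in the other cells, the lowest ratio of any named gene at -6.11. Mfap5, a microfibril protein, was at -4.94, Mfap4 at -4.32 and Loxl1, an elastin crosslinking enzyme, at -4.30. Emilin1, which links elastin to its surroundings, was the higher one, at 515 against 145 CPM. Other genes among the 15 lowest were Mcam, a vascular adhesion receptor (-5.39, 4 UMIs in the members), the insulin-like growth factor binding protein gene Igfbp2 (-5.27, 5 UMIs) and Gucy1a1, a subunit of the nitric oxide receptor (-5.03, 7 UMIs).

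Genes of modulated smooth muscle split. Of 14 measured, 8 were higher and 5 lower, against 13.1% and 27.8% of all genes. Lgals3 (galectin 3, a marker of the modulated state) was seen in all 57 members, from 260 over 2835 to 15349 CPM, and summed to 3549 against 448 CPM. Dcn (decorin) and Lum (lumican), which space collagen fibrils, were in all 57 too, with medians of 9854 and 2678 CPM and ratios of 2.67 and 1.47. Timp1, an inhibitor of matrix proteases, was at 2.88, and S100b at 4.76. Lower were Ly6a (Sca1, a stem-cell surface protein; 5 UMIs in the members) at -4.74, the chemokine gene Cxcl12 at -4.48, the adhesion gene Vcam1 at -3.85, the protease gene Mmp3 at -3.61 and the filament gene Vim at -1.64.

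Of the clusters that held no member, cluster 4 (177 cells) also had low Acta2 (3920 CPM), and its leading genes were Mmp3, Ttc9, Ly6c1, Cd34 and Ltbp2. They shared Dcn (15278 CPM), Lum (9269), Timp1 (2791) and Spp1 (6509) with the members. They differed in Ly6a, at 1162 CPM against 5.61, in Vcam1, at 2145 against 41.5, and in Eln, at 2130 against 5.61. On the other side Snorc was at 4.24 CPM in cluster 4, Cnmd at 4.85, Ibsp at 10.9, Acan at 14.5 and Fmod at 53.3. Of these Fmod alone was above its level in the sum of all other cells (17.9 CPM). Further genes of the cartilage and bone lists were above that sum in cluster 4, though far under the members. Cytl1 was at 366 CPM against 98.1, 1500015O10Rik at 319 against 77.5 and Tnfrsf11b at 599 against 93.3. Comp was at 50.9 against 30.6 and Chad at 30.9 against 24.0, while Bglap in cluster 4 was lower, at 4.24 against 7.03. Sparc was at 6435 CPM there and Sox9 at 180, both between the members and the rest. Clusters were built from these same levels, so this too is a description.

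Signalling genes were mostly lower. Of 15 TGF-beta and CCN targets 10 were lower and 2 higher (Tgfb1 1.67, Tsc22d1 1.30), with Ccn3 at -4.33 and Ccn1 at -3.58. Among all genes 27.8% were lower and 13.1% higher, so the 2 higher targets were near the share of all genes. Of 9 BMP and Id genes 6 were lower, Id3 at -2.53 and the receptor gene Bmpr1a at -2.29 among them, and Bmp2, a bone-inducing ligand, was higher at 1.64. All 3 Notch genes measured were lower (Hes1 -3.39), as were all 5 of the insulin-like growth factor axis (Igfbp7 -1.85 to Igfbp2 -5.27). Pth1r, the receptor for parathyroid hormone and its related peptide, which act on chondrocytes and osteoblasts, was at 882 against 23.1 CPM, among the 20 highest ratios at 5.26.

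Most interferon-induced, inflammatory and dissociation-response genes were lower. Of 11 interferon-induced genes 10 were lower (Ifi27l2a -3.54, Ifitm2 -0.79), and of 7 inflammatory and complement genes all 7 (Cxcl12 -4.48, Serping1 -4.06, C1ra -1.10). In the members 5 of the 11 and 5 of the 7 were under 50 CPM, so these passed the filter only through the other cells. The list of genes induced by tissue dissociation had 14 of 21 lower, with Hspa1a at -3.73 and Fos at -3.05, and none higher. The part of this response in the other differences was not tested. Of 12 glycolysis genes 2 were higher (Ndrg1 1.09, Ldha 1.04) and 2 lower, and of 14 respiratory chain genes only Cox8a was lower (-1.25). Among all genes 13.1% were higher and 27.8% lower. The 10 measured genes of the mitochondrial genome had a median of -0.52 with none past 2-fold, and both cell cycle genes measured, Pcna (-0.40) and Hmgb2 (-0.73), were within it. Hmox1 (heme oxygenase) was the one higher gene of 11 on the ferritin and oxidative stress list, at 1421 against 247 CPM. Among 12 matrix-degrading genes and their inhibitors 8 were lower and Timp1, Mmp2 and Timp3 higher. Of 6 stem-cell surface genes 5 were lower (Cd44 -0.11), and of 3 cholesterol genes 2 were higher (Msmo1 1.77).

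**Figure D4:**
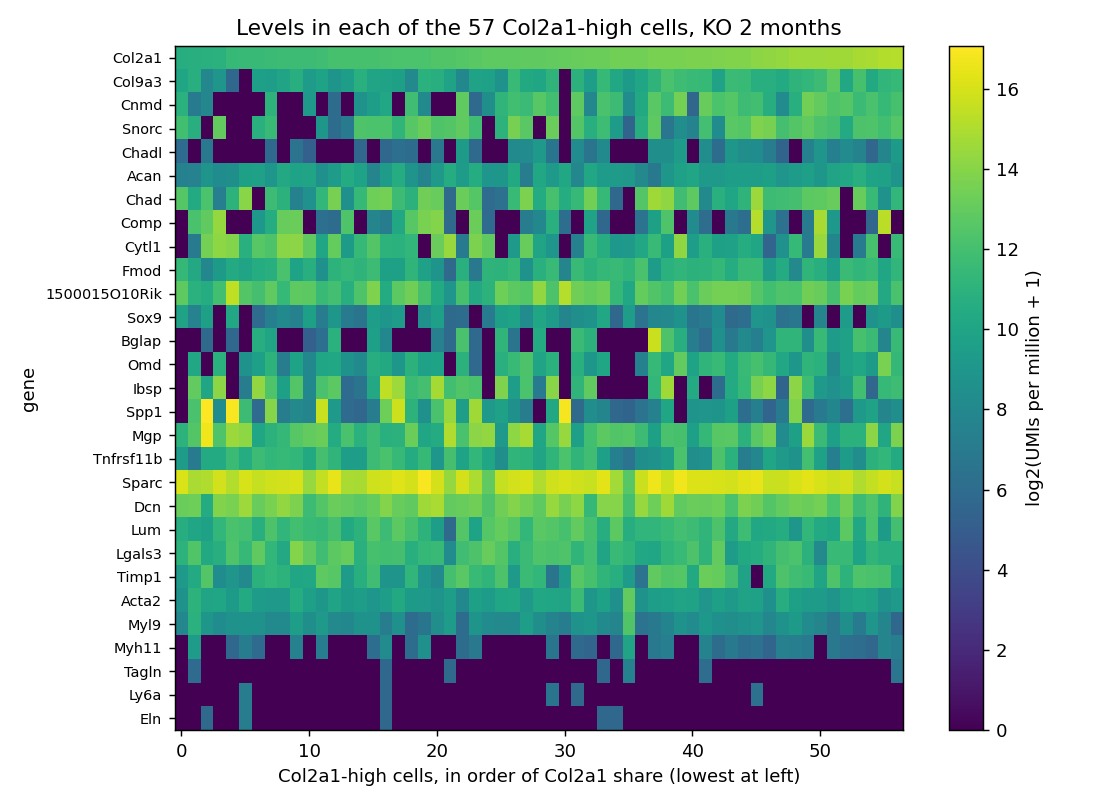
Columns are the 57 Col2a1-high cells in order of their Col2a1 share, rows are genes, and the colour is log2(CPM + 1). Sparc, Acan, Dcn and Fmod are present in every column, Cnmd is absent from 12 and Bglap from 19, and 3 cells stand out for Spp1 at 114586 CPM or more.

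Within the 57 cells the genes did not vary as 1 block. Col2a1 went with Cnmd (Spearman 0.64) and Col9a3 (0.64), and Cnmd with Chadl (0.75) and Clec11a (0.64). Col2a1 had little relation to Chad (0.09), Comp (-0.14), Acan (0.19) or Acta2 (-0.07), and was opposed to Cytl1 (-0.33). Fmod and Spp1 were at -0.50, and Cnmd and Spp1 at -0.35. These are correlations of CPM across 57 cells of 1 library that share its depth range and its free RNA. Among 378 pairs computed they were picked by size.

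Binned by Col2a1 share, the same cells showed this pattern in sums. The bins order the cells by the value that chose the members, so they restate correlations with Col2a1 and add no separate support. In the 20 cells from 0.1% to under 0.5%, Cnmd was at 649 CPM, Col9a3 at 871, Snorc at 2440 and Bglap at 308. In the 23 cells at 1% or more, Cnmd was at 4216, Col9a3 at 2512, Snorc at 4467 and Bglap at 3595, the last including the cell that held 51.0% of its UMIs. Without the cell richest in Bglap in each bin, its levels were 223 and 1419 CPM. Spp1 went the other way, from 22388 CPM to 1037, as did Cytl1 (5760 to 2876) and Tnfrsf11b (2152 to 1104). Single cells weighed on these sums: without the cell richest in the gene in each bin, the levels were 15464 and 316 CPM for Spp1, 5136 and 1664 for Cytl1, and 1985 and 941 for Tnfrsf11b. Mgp was at 11504 and 5714 CPM, but 1 cell held 53.1% of its UMIs in the lower bin, and without the richest cell of each bin its levels were 5715 and 4952. The bin between them, 0.5% to under 1%, held only 14 cells. Acta2 did not grade with the share inside the members (838 and 1174 CPM). In the 52 cells from 0.02% to under 0.1% it was at 15424 CPM. Their median depth was 4982.5 UMIs, at which 1 Col2a1 UMI is enough to enter that bin. Nearest to the limit, the cells at 0.0903%, 0.0928% and 0.0963% had 903, 928 and 562 CPM of Acta2. Cells at 0.0668%, 0.0738% and 0.0768% had 10575, 14542 and 1537 CPM.

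Cells that passed the same limit at 4 months in the knockout were many more, 1402 of 1577. There 1576 cells held a Col2a1 UMI and 461 lay between 0.05% and 0.2%, so many cells lay close to the limit. The comparison was therefore also made at 0.5%, with 37 cells at 2M and 820 at 4M. At 0.1%, 62 of 2839 genes (2.18%) were at least 2-fold higher at 2M and 106 (3.73%) lower. At 0.5% these were 90 of 2793 (3.22%) and 105 (3.76%). For the cells under 0.1% of the 2 libraries they were 330 of 3535 (9.34%) and 357 (10.1%). The difference between these shares was not tested, and the sets differ in their number of UMIs. Each time point is 1 library, so time and library cannot be told apart.

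The matrix genes were close. At 0.5% Snorc was at 4392 CPM at 2M and 4245 at 4M, Col9a3 at 2079 and 2028, Chad at 5513 and 7160.4, Acan at 773 and 1059, and Cnmd at 3647 and 5863. Of the 12 cartilage genes none was 2-fold higher at 2M, and Prg4 (336 and 793 CPM) and Chadl (206 and 431) were lower. Among all genes at 0.5%, 3.22% were higher at 2M and 3.76% lower. Ibsp was higher at 2M, 5138 against 2532 CPM, and Sox9 lower, 323 against 702. Single cells weighed on Ibsp at 2M: 1 cell held 37.5% of its UMIs from 0.5% to under 1%, and 1 cell 28.1% at 1% and over. Without these cells Ibsp was at 4359 and 3400 CPM in the 2 bins, in place of 6367 and 4495.

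Cth, which makes cysteine, was at 262 CPM (interval 229 to 297) in the 57 cells at 2M and at 35.3 in the 4M cells at the same limit, a log2 ratio of 2.89. It was uneven at 2M: 25 of the 57 cells were at 0, the median was 52.1 CPM, and 5 cells held 48.9% of its UMIs. Phgdh and Psph, of serine synthesis, were at 1.63 and 1.78, and Asns, asparagine synthetase, at 1.58. At 0.5% these 4 genes stood at 251, 104, 127 and 272 CPM at 2M, against 41.4, 45.3, 39.2 and 103 at 4M. The hyaluronan-binding Tnfaip6 (1.93) and Gadd45a (1.79) were also among the 10 highest. Lower at 2M were C3 and C4b of complement, at 3.37 and 21.3 CPM against 83.7 and 115, Mmp3, at 13.5 against 121, Aspn, at 34.8 against 156, and the heat shock genes Hspa1a (44.9 against 235) and Hspa1b (13.5 against 65.0). C3 in the 2M cells rested on 3 UMIs (interval 0.694 to 9.84 CPM).

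Of 15 contractile genes measured in the Col2a1-high cells, 6 were higher at 2M than at 4M, against 2.18% of all genes. Their median was 0.99, and Cnn1, Actg2 and Ppp1r14a were among the 10 highest ratios. At 0.5%, 11 of 14 measured were higher, against 3.22% of all genes, with a median of 2.21. A few cells carried much of this: 1 member held 28.5% of the members' Cnn1 UMIs and 43.1% of their Actg2 UMIs. Without the 3 members at 2000 CPM of Acta2 or more, 2 of 13 were higher with a median of 0.58, and in the 35 such cells left at 0.5%, 9 of 13 with a median of 1.44. The cells below 0.1% of the same libraries differed in the same direction: Cnn1 was at 2489 CPM at 2M and 536 at 4M, and Acta2 at 22534 and 4176. The part of RNA from those cells in the members' values was not tested.

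The 51 Col2a1-high cells of the Apoe 4M library come from another table, another genotype and a longer diet, so the levels are set side by side and no ratio is drawn. They too had a median UMI total (13940) about 2 times that of their neighbours (6848). Col2a1 was at 32493 CPM there, Chad at 11634, Cytl1 at 19605, Ibsp at 9575, Sparc at 48662 and Sox9 at 996, with Acta2 at 490.2. Snorc was at 1209.5 CPM and Cnmd at 333, beside 3730.2 and 2630.1 in the knockout members at 2M, and Bglap was listed at 0.

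Among targets of TGF-beta signalling, chosen here after their values were seen, Pmepa1 was at 59.5 CPM (interval 44.6 to 77.8) in the knockout members and 60.3 in the other cells of their library. In Apoe 4M it was at 554 in the Col2a1-high cells and 637 in the rest. Ccn2, a connective tissue growth factor, was at 209 and 218 CPM in the knockout pair and at 3940 and 1314 in the Apoe pair. The matrix crosslinking enzyme gene Lox was at 28.1 and 70.7 CPM in the knockout pair and at 772 and 213 in the Apoe pair. Thus Pmepa1 was near the level of the surrounding cells in both libraries, while Ccn2 and Lox were above the surrounding cells in Apoe 4M and at or below them in KO 2M. Genotype, diet length and library cannot be told apart in these pairs.

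**Figure D5:**
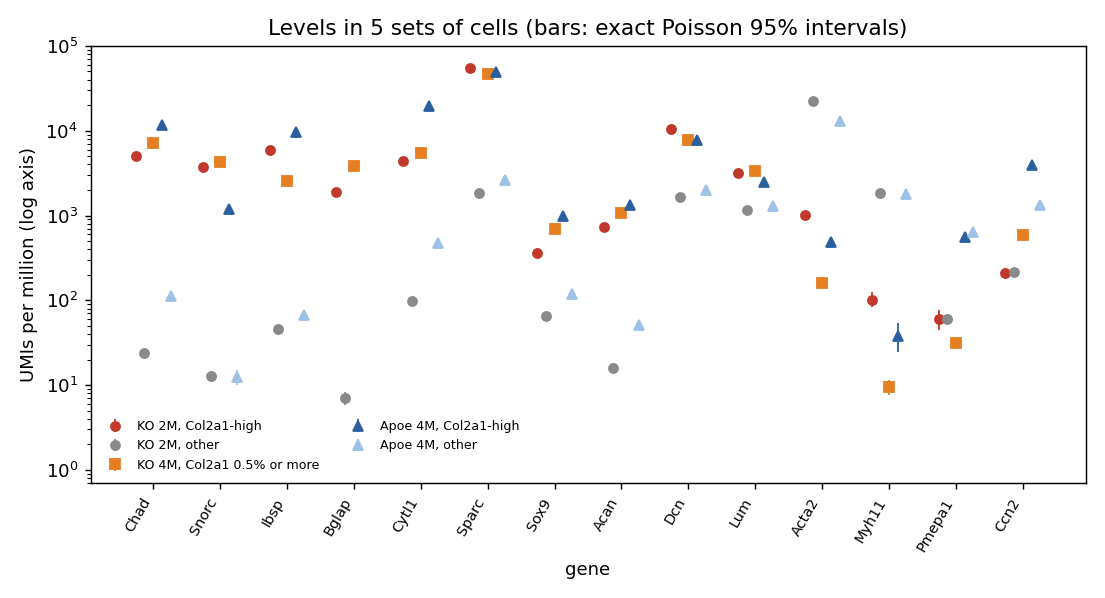
Points are summed levels in CPM (log axis) with exact Poisson 95% intervals for 14 genes in 5 sets of cells: KO 2M Col2a1-high and other cells, KO 4M cells at 0.5% Col2a1 or more, and Apoe 4M Col2a1-high and other cells. Chad, Ibsp and Sparc are high in the 3 Col2a1 sets, Bglap is not listed in Apoe 4M, and Pmepa1 is at 59.5 CPM in the KO 2M members against 554 CPM in the Apoe 4M ones.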

How the data were processed

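The deposited values are log2(scaled count + 1), which the authors scaled cell by cell with TMM factors, as the file names state. The submitters' processing notes name the build GRCm38 and the tools STAR, UMI-tools, Subread 1.6.0 and featureCounts. Undoing the log and dividing by the smallest value above 0 in the cell gave whole UMI counts for 100% of 18133147 entries of the KO table (tolerance 0.01). The Apoe 4M library comes from a separately normalized table, of which 100% of entries were whole as well.

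UMIs were summed over Col2a1-high and other cells and divided by the group's total (CPM). A gene was measured when listed and at 50 CPM or more in either group, and counted at a 2-fold ratio, with groups under 3 UMIs set to 3. With 1 library per group no test is possible. Each cell is a row whose name gave its library, and 0 cells were left without one. No cell was removed. Symbols and 1-based coordinates are from GENCODE M21, which matched 11214 of the KO table's 11221 genes. Clusters (scanpy 1.11.5, leidenalg 0.10.2, resolution 0.5) used 2000 variable genes, 30 components and 15 neighbours, with Col2a1, Chad, Comp and Spp1 left out. The calculation of ratios was tested on simulated data.

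Named are the 20 highest and 15 lowest ratios among measured genes seen in 25% of the cells of the higher group, measured genes of the cartilage, bone, factor, contractile, modulated and elastic lists, the 2 highest and 2 lowest of other lists, and the 10 furthest in each direction between 2M and 4M. Some list genes outside that rule were chosen after their values were seen. The members, lists and rule were chosen with earlier results of these data known. Sequences are not shown, since the members are cells.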

Additional observations from a re-analysis of the deposited data

How the results depend on the processing

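Each choice was changed alone, and no ratio or list median past 2-fold changed sign. The number of Col2a1-high cells was 22 among cells up to 2 times the library median UMIs and 37 at a limit of 0.5%. This limit, and leaving out the 3 members at 2000 CPM of Acta2 or more or the member highest in a gene, were chosen after seeing the data. Genes higher and lower (466 and 986, 32.1% of them higher) numbered 289 and 139 by mean deposited log2 values (67.5% higher), which turned the balance, and the median of all genes was then 0.18; 714 and 3147 with no level filter (18.5%); and 299 and 533 at 100 CPM (35.9%). Mean log2 values left 5 lists at a median of 1 or more and 3 at -1 or less, in place of 8 and 11. Between 2M and 4M members, higher and lower genes (62 and 106) numbered 150 and 231 after thinning and 132 and 758 with no level filter. For cells below the limit, the balance (330 higher and 357 lower as reported) turned to 606 and 400 at a limit of 0.5% and to 484 and 371 at 0.2%, while 1095 were lower at 0.05% and 729 with no level filter. The cause was not tested, beyond more or fewer genes passing the filter. The other 64 values of this kind stayed within 1.5 times. Of 1115 values for single genes 379 left the counting interval of the reported ratio, and of 275 list medians 33 moved by over 0.5. Signs changed for 5 lists within 2-fold (glycolysis, respiratory chain, cell cycle, ferritin and mitochondrial genome), all from below 0 to at most 0.29 by mean log2 values (glycolysis also after thinning, 0.07), and for Thbs1 (-0.19) and Ltbp3 (-0.60). No paired analysis was possible because each group has 1 library, numbered in accession order. Depth limits genes with few UMIs in 57 cells, and the table lists at 0 any gene seen in under 113 cells of the library.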
